A study of Mus musculus with 39 samples.

Results

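The genes described here make, carry, read and break down retinoic acid, a signal derived from vitamin A. They are 10 of the 47643 gene rows in each of the count tables of this series, chosen by name: *Aldh1a2*, *Rdh10* and *Stra6* (synthesis and uptake), *Cyp26a1* and *Cyp26c1* (breakdown), *Crabp1* and *Crabp2* (binding proteins), and *Rara*, *Rarb* and *Rarg* (nuclear receptors). They were read in 35 libraries, each of 1 mouse epiblast from which visceral endoderm and extraembryonic ectoderm had been dissected away. The E5.5 set held 4 *Stat3* null libraries and 2 from WT embryos. At E6.5 there were 8 null libraries beside 9 WT ones, and E7.5 gave 3 null libraries beside 9 WT ones. The embryos came from matings between *Stat3* heterozygous mice kept on the outbred CD1 background, and genotype was read by PCR of extraembryonic tissue, so null and WT embryos developed in heterozygous mothers. In the null allele a neomycin resistance gene replaces part of *Stat3*, and the other exons can still give reads. A further 4 libraries came from EpiSCs, pluripotent lines derived from such epiblasts, of which 2 lines were *Stat3* null (lines 2 and 6) and 2 were WT (lines 8 and 13). All EpiSC lines were grown in N2B27 on fibronectin with FGF2, Activin A and XAV-939, an inhibitor of WNT signaling, and each genotype rests on 2 lines.

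Retinol reaches cells bound to the carrier RBP4 and enters through the membrane receptor STRA6. RDH10 oxidizes it to retinaldehyde and ALDH1A2 turns retinaldehyde into retinoic acid, while the cytochromes CYP26A1 and CYP26C1 inactivate the product. CRABP1 and CRABP2 bind retinoic acid in the cytoplasm, and the receptors RARα, RARβ and RARγ bind DNA together with RXR partners. In the gastrulating mouse embryo *Aldh1a2* is known as a gene of the newly formed mesoderm, *Cyp26a1* as a gene that keeps the anterior embryo clear of the signal, and *Hoxb1* as an early target gene.

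RARs bind pairs of short repeats in the same direction, and pairs 5 bases apart (DR5) are the best known of them. RefSeq start sites (GRCm38.p6) were at hand for 8 of the 10 genes, as 15 entries of 300 bases. Direct repeats of AGGTCA and of its variants AGTTCA as well as GGTTCA and also GGGTCA, all within the known consensus and in any combination, were searched on both strands. Spaced by 1 (DR1), 2 (DR2) or 5 bases they stood in 193 of all 32851 promoter entries (0.588%), and as DR5 in 32 (0.0974%). Of the 8 genes, *Rarb* and *Cyp26a1* held a match, in both a DR5. These are textbook elements known when the search was set up, so nothing is read from their share. The 250 bases before the start site of both genes are shown because they carry this element and because transcripts of *Rarb* and *Cyp26a1* took different courses in the libraries, as described below. The match is one of letters, and binding was not measured. The stretches lie at chr14:16575477-16575726 on the minus strand (*Rarb*) and at chr19:37697558-37697807 on the plus strand (*Cyp26a1*), and capitals mark the DR5. Its leftmost base in the printed stretch is at position -53 from the start site in *Rarb*, on the gene's own strand, and at -32 in *Cyp26a1*, where the repeats are read on the opposite strand.
Rarb: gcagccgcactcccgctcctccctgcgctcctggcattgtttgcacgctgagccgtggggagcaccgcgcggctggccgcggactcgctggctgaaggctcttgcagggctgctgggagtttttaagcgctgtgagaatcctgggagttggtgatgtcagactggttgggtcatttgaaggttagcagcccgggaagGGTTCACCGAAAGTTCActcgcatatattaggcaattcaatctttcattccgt
Cyp26a1: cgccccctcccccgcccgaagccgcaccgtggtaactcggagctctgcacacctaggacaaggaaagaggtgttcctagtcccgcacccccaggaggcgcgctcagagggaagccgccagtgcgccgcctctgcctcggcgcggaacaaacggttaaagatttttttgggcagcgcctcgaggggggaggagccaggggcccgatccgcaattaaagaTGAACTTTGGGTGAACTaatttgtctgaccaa

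Values are given as CPM, the counts of a gene scaled by the total counts of its library. Total counts lay between 22941210 and 79013960 in the epiblast libraries and between 63445877 and 127583699 in the EpiSC lines. A gene at 0 counts could lie at up to 3 counts, which in the libraries of E5.5 to E7.5 is 0.0380 to 0.131 CPM. *Stat3* was lower in each of the 3 E7.5 null libraries (1.22 to 1.48 CPM) than in any E7.5 WT library (4.80 to 25.3 CPM), as it was at E5.5 (9.21 to 22.6 and 39.3 to 49.4 CPM), while the E6.5 ranges overlapped (1.41 to 7.59 and 5.84 to 27.2 CPM). Several libraries stood apart in marker genes. E5.5 null 1 held 0.654 CPM of the epiblast gene *Pou5f1*, against 101 to 293 CPM in the other E5.5 libraries, and 273 CPM of the extraembryonic ectoderm gene *Elf5*. E6.5 null 1 held 171 CPM of *Elf5*, against at most 7.96 CPM in the other E6.5 libraries. E7.5 WT 3 held 155 CPM of the epiblast gene *Fgf5*, against 2.75 to 8.86 CPM in the other 8 E7.5 WT libraries and 79.3 to 137 CPM in the E7.5 null libraries. E6.5 WT 3 and E6.5 null 3, 4 and 8 were high in visceral endoderm markers, with values given beside *Cyp26a1*. E6.5 null 2 and 3 had the fewest genes detected of all epiblast libraries, 15531 and 15171, against 17961 to 22310 in the other E6.5 libraries.

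The composition of the pathway's transcripts changed with stage. Per kilobase of exon, *Cyp26a1* held 76.3% of the summed mean level of the 10 genes in E5.5 WT epiblasts, 33.9% at E6.5 and 10.4% at E7.5, where *Aldh1a2* held 27.3%, *Crabp1* 21.2% and *Crabp2* 21.1%. The E6.5 share of *Cyp26a1* rested on E6.5 WT 3, and without that library, a choice made after seeing the data, it was 17.4%, below *Rarg* (35.9%) and *Rara* (20.5%). The summed CPM of 18 visceral endoderm markers was 6688 and 8253 in the 2 E5.5 WT libraries. Its median was 338 CPM in E6.5 WT and 2053 CPM in E7.5 WT. The part of visceral endoderm in these shares was not tested. In E7.5 null epiblasts *Cyp26a1* held 38.3% and *Aldh1a2* 0.430%, and *Rarg* and *Rara* followed *Cyp26a1* with 23.0% and 15.1%. In E5.5 WT the lowest *Cyp26a1* level per kilobase (110) was above the highest of the next gene in order, *Crabp2* (12.7), whereas in E7.5 WT the ranges of *Aldh1a2*, *Crabp1*, *Crabp2*, *Cyp26a1* and *Rarg*, each with its neighbour in this order, overlapped. *Rarg* stood above *Rara* per kilobase without overlap in both genotypes at E7.5, in E6.5 WT and in both kinds of EpiSC. *Rarb* and *Aldh1a2* were the lowest pair per kilobase in E5.5 and E6.5 epiblasts of both genotypes, and in E6.5 their ranges overlapped.

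**Figure D1:**
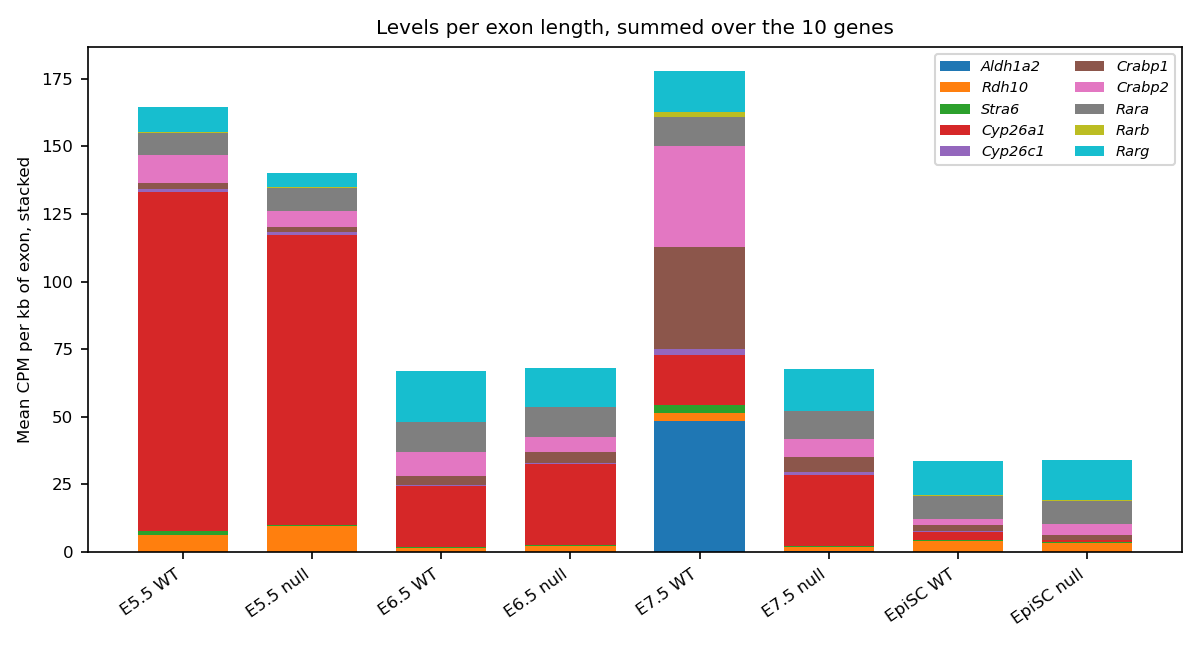
Stacked bars give the mean CPM per kilobase of exon of each gene in each group of libraries (2 to 9 libraries a group, no error shown). *Cyp26a1* makes up most of the E5.5 bars, and *Aldh1a2*, *Crabp1* and *Crabp2* fill the E7.5 WT bar but not the E7.5 null bar.

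Groups were compared with edgeR's quasi-likelihood test over all genes, and genes with a Benjamini-Hochberg adjusted p under 0.05 and a log2 fold change beyond 1 in either direction are named as called. From E6.5 to E7.5 in WT epiblasts, all 10 genes passed the filter on low counts and 6 were called higher at E7.5: *Aldh1a2*, *Stra6*, *Rdh10*, *Crabp1*, *Crabp2* and *Rarb*. Calls in that direction made up 5.74% of the 17191 genes tested and calls in either direction 8.83%. The median log2 fold change of the 10 genes was 2.101, beside 0.01 over all genes tested. At E7.5, 3 of the 10 genes were called lower in null than in WT epiblasts, *Aldh1a2*, *Crabp1* and *Rarb*, where 1.09% of 19680 genes were called lower and 1.17% in either direction. The median of the 10 was -1.48, beside -0.02 over all genes. *Aldh1a2* had means of 0.239 CPM in E6.5 WT, 0.659 CPM in E7.5 null and 110 CPM in E7.5 WT epiblasts. It thus passed the filter in both comparisons mainly through the E7.5 WT libraries, and its direction there is no support. Both medians include it. These comparisons share the 9 E7.5 WT libraries, so their values are set side by side without a test of their likeness.

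**Figure D2:**
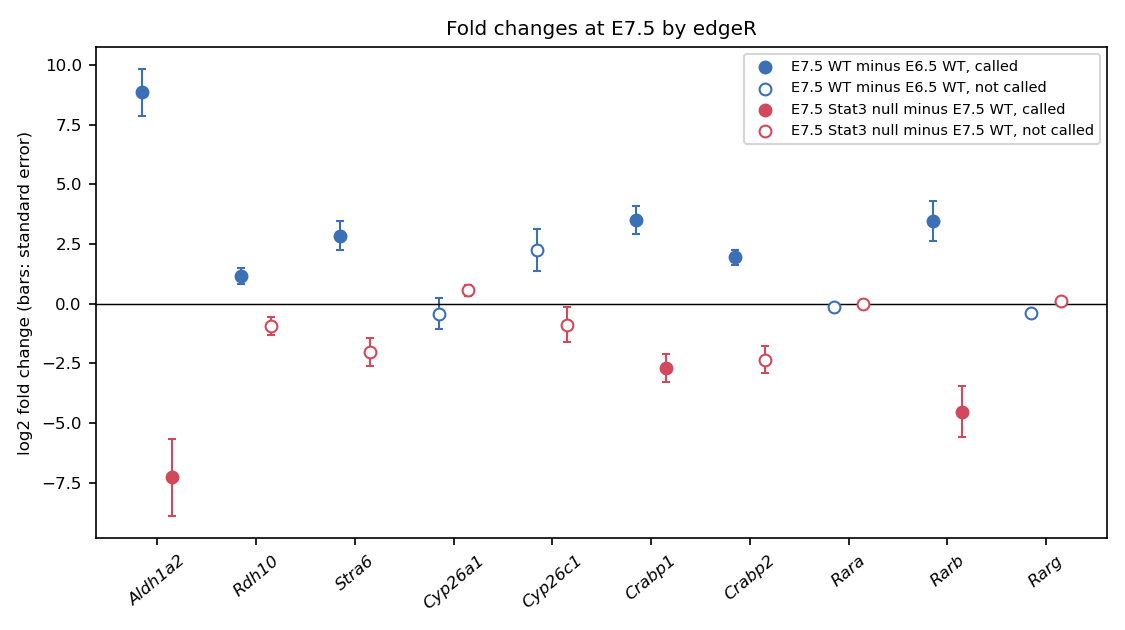
Points give the log2 fold change of each gene by edgeR, with its standard error as bars, for E7.5 WT minus E6.5 WT epiblasts (blue) and for E7.5 null minus E7.5 WT epiblasts (red), and filled points are calls. *Aldh1a2* has the widest span of the 10 genes, from 8.85 in the stage comparison to -7.27 in the genotype comparison, and *Rara* and *Rarg* lie near 0 in both.

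The 3 calls between genotypes at E7.5 were close to the threshold, with adjusted p-values of 0.0391 (*Crabp1*), 0.0471 (*Rarb*) and 0.0494 (*Aldh1a2*). Without a filter on low counts, in a single fit of all 35 libraries, and without any 1 of the 3 null libraries or of 7 of the 9 WT libraries, none of the 10 genes was called. Without E7.5 WT 2, 1 of them was called. Without E7.5 WT 3, a library picked out after its values were seen, 5 were called, *Stra6* and *Crabp2* in addition. Values without it, here and below, are therefore no independent support. DESeq2 also called these 5 genes with all libraries in.

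*Aldh1a2* (chr9:71215789-71296243, plus strand, GRCm38), the enzyme that makes retinoic acid, was near 0 in every group but E7.5 WT. Its CPM was 0 in both E5.5 WT libraries and 0, 0, 0.496 and 0.311 in E5.5 null 1 to 4. At E6.5 the lowest, median and highest values were 0, 0.359 and 0.4926 CPM in WT and 0, 0 and 1.04 CPM in null epiblasts. The E7.5 WT libraries ran from 0.228 through a median of 99.4 to 202 CPM, and E7.5 null 1 to 3 held 0.864, 0.296 and 0.816 CPM. Of the 9 E7.5 WT libraries, 8 lay above all 3 null libraries, from 57.8 CPM upward, and E7.5 WT 3 lay below them.

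From E6.5 to E7.5 in WT, *Aldh1a2* rose by 8.85 ± 0.97 (SE) on the log2 scale, with an edgeR adjusted p of 1.36e-05. Without E7.5 WT 3, the same 6 genes were called higher. The adjusted p was 0.187 under voom with library quality weights, which kept the direction. Between genotypes at E7.5 it fell by 7.27 ± 1.61 (SE) on the log2 scale in null epiblasts (edgeR adjusted p = 0.0494), and without E7.5 WT 3 by 7.44 ± 0.73 (adjusted p = 0.000161). An exact two-sided permutation test of log2(CPM + 0.1) at E7.5 gave p = 0.0182 for *Aldh1a2*, where 0.00455 is the smallest p that 3 against 9 libraries allow. The p of 0.0182 is unadjusted and belongs to 30 such tests, of 10 genes at 3 stages. E7.5 WT 3 is the only WT library below the null ones. Leaving it out separates the groups fully, so the p of 0.00606 then obtained, the smallest for 3 against 8, adds no support. Against E6.5 WT, *Aldh1a2* in E7.5 null epiblasts differed by 1.43 ± 1.39 (SE) on the log2 scale (adjusted p = 0.892). The change from E6.5 to E7.5 differed between null and WT by -6.30 ± 1.85 (SE) for *Aldh1a2*, an interaction that was not called (edgeR adjusted p = 0.0949), and without E7.5 WT 3 by -6.47 ± 1.5 (adjusted p = 0.0143), which was.

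Mesoderm, the tissue in which *Aldh1a2* is known to be transcribed, was followed by a list of 18 marker genes that does not hold *Aldh1a2*. Their sum lay between 741 and 890 CPM in the E7.5 WT libraries other than WT 3, at 116 CPM in WT 3, and at 119, 133 and 421 CPM in E7.5 null 1 to 3. E7.5 null 3, with the highest of these null sums, held 0.816 CPM of *Aldh1a2*. The most abundant gene of the list was *Cer1* in E7.5 null and *Pdgfra* in E7.5 WT epiblasts. The study used CER1 as a visceral endoderm marker, so the null sums need not follow mesoderm. In bulk libraries fewer cells of a type and less RNA per cell cannot be told apart. Visceral endoderm markers, a list of 18 genes, also differed at E7.5, with sums of 203 to 473 CPM in null and 617 to 4878 CPM in WT libraries, and their part in the difference of *Aldh1a2* was not tested.

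**Figure D3:**
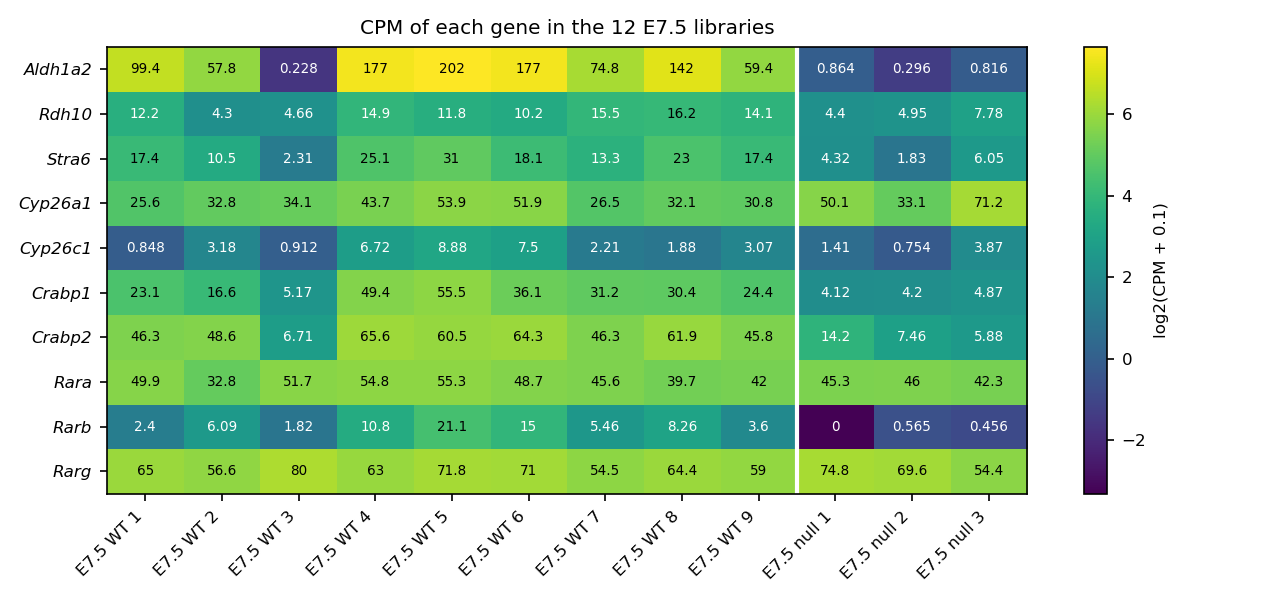
Each cell gives the CPM of a gene (rows) in an E7.5 library (columns, 9 WT left and 3 null right of the white line), colored by log2(CPM + 0.1). E7.5 WT 3 shows low *Aldh1a2* (0.228), *Stra6* (2.31) and *Crabp2* (6.71) beside the other WT libraries, and the WT and null values of *Cyp26a1*, *Rara* and *Rarg* overlap.

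*Rdh10* (chr1:16105774-16133734, plus strand), which makes the retinaldehyde that ALDH1A2 uses, was highest at E5.5. E5.5 WT 1 and 2 held 31.7 and 20.6 CPM, and E5.5 null 1 to 4 held 9.92, 48.3, 52.6 and 46.5 CPM. At E6.5 the lowest, median and highest were 1.41, 4.03 and 12.2 CPM in WT and 3.30, 6.61 and 14.6 CPM in null epiblasts. At E7.5 they were 4.303, 12.2 and 16.2 CPM in WT, and null 1 to 3 held 4.40, 4.95 and 7.78 CPM. The E5.5 and E6.5 WT ranges did not overlap, and 7 of the 9 E7.5 WT libraries lay above all 3 E7.5 null libraries.

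*Rdh10* fell by 2.39 ± 0.48 (SE) on the log2 scale from E5.5 to E6.5 in WT (edgeR adjusted p = 0.00858) and fell by 2.22 ± 0.43 in null epiblasts (adjusted p = 0.0127). In the WT comparison 2 of the 10 genes were called, *Rdh10* and *Rarg*, where 5.15% of all genes were, and in the null comparison 1 of the 9 tested, where 1.98% were. Without E5.5 null 1, the library with little *Pou5f1*, *Rdh10* fell by 2.51 ± 0.36 in null epiblasts (adjusted p = 0.00297). The WT call was lost without E5.5 WT 1 (-2.05, adjusted p = 0.197) and the null call without E5.5 null 2 (-2.12, adjusted p = 0.0552). *Rdh10* then rose by 1.15 ± 0.34 (SE) from E6.5 to E7.5 in WT (adjusted p = 0.0152). The log2 fold change of null against WT at E7.5 was -0.93 ± 0.39 (SE), which was not called (adjusted p = 0.192), and without E7.5 WT 3 it was -1.03 ± 0.34 (adjusted p = 0.0535). At E6.5 it was 0.78 ± 0.38 higher in null epiblasts, not called either (adjusted p = 0.621), with an unadjusted exact permutation p of 0.0381. The interaction of genotype with stage was -1.74 ± 0.61 (adjusted p = 0.156).

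*Stra6* (chr9:58063788-58153996, plus strand), the retinol receptor, was low until E7.5. E5.5 WT 1 and 2 held 10.8 and 5.94 CPM, and E5.5 null 1 to 4 held 0, 2.57, 4.36 and 0 CPM, so the ranges did not overlap. The difference was -2.31 ± 1.99 (SE) on the log2 scale (edgeR adjusted p = 0.999) and -1.89 ± 1.47 without E5.5 null 1. The exact permutation p was 0.133, where a test of 4 against 2 libraries cannot go below 0.0667. At E6.5 the median was 1.959 CPM in WT (0 to 6.70) and 2.26 CPM in null epiblasts (0 to 5.72). E7.5 WT libraries ran from 2.31 (WT 3) through a median of 17.4 to 31.0 CPM, against 4.32, 1.83 and 6.05 CPM in null 1 to 3. *Stra6* rose by 2.85 ± 0.61 (SE) from E6.5 to E7.5 in WT (adjusted p = 0.00204). Between genotypes at E7.5 it differed by -2.02 ± 0.60 (SE), not called (adjusted p = 0.0857). Without E7.5 WT 3, the difference was -2.17 ± 0.38 with an adjusted p of 0.00129.

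*Cyp26a1* (chr19:37697798-37701536, plus strand) encodes the main enzyme that removes retinoic acid in the early embryo, and neighbours *Cyp26c1* on chromosome 19. E5.5 WT 1 and 2 held 218 and 280 CPM of *Cyp26a1*, and E5.5 null 1 to 4 held 76.0, 224, 317 and 235 CPM. At E6.5 the lowest, median and highest were 3.88, 17.0 and 260 CPM in WT and 8.31, 25.3 and 160 CPM in null epiblasts. At E7.5 they were 25.6, 32.8 and 53.9 CPM in WT, and null 1 to 3 held 50.1, 33.1 and 71.2 CPM. The E6.5 spread in each genotype covered the whole of the E7.5 range, and WT and null overlapped at every stage.

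*Cyp26a1* was not called in any comparison by edgeR with all libraries in. Its log2 fold change was -2.41 ± 1.22 (SE) from E5.5 to E6.5 in WT (adjusted p = 0.279) and -1.87 ± 0.74 in null epiblasts (adjusted p = 0.194, and 0.186 without E5.5 null 1). Without E6.5 WT 3 the WT difference was -3.78 ± 0.62 and was called (adjusted p = 0.00312), as it was with all libraries under DESeq2 (-3.52) and voom (-4.31). Between E6.5 and E7.5 in WT it was -0.41 ± 0.66 (adjusted p = 0.708), and without E6.5 WT 3 it was 0.94 (adjusted p = 0.0560). In the main edgeR fit this library thus set the direction. With all libraries in, the fold was positive under DESeq2, under voom and with the replicate number as a block, as given below. At E7.5 *Cyp26a1* was 0.56 ± 0.24 (SE) higher in null epiblasts on the log2 scale, not called (adjusted p = 0.212, exact permutation p = 0.155). At E6.5 the difference between genotypes was 0.33 ± 0.84 (adjusted p = 0.969). Within the 11 E6.5 libraries under 40000000 counts it was 2.14 ± 0.82 (adjusted p = 0.277), and within the 6 over that depth it was -1.14 ± 1.08 (adjusted p = 0.99999).

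Libraries high in *Cyp26a1* were also high in visceral endoderm transcripts. Among E6.5 WT libraries WT 3 held the highest of both, 260 CPM of *Cyp26a1* and a sum of 6232 CPM over the 18 markers, where the median sum was 338 CPM. Among E6.5 null libraries, null 3, 4 and 8 held 110, 113 and 160 CPM of *Cyp26a1* with sums of 7566, 5618 and 4817 CPM, and the other 5 held 8.31 to 26.2 CPM with sums of 588.5 to 1454 CPM. At E5.5 the sums ran from 6688 to 13137 CPM, apart from 719 CPM in null 1, which had the lowest *Cyp26a1* of that stage. At E7.5 the order did not hold, since the null libraries had the lowest sums of the stage (203 to 473 CPM) and 33.1 to 71.2 CPM of *Cyp26a1*. Across libraries, Pearson's r between *Cyp26a1* and this sum, both as log2 values, was 0.798 over all 35 epiblast libraries and 0.283 over the 9 E7.5 WT libraries, and for *Rdh10* it was 0.825 and 0.699. These are descriptions, since libraries share their stage and their dissection. Whether visceral endoderm left on the epiblast carried the *Cyp26a1* and *Rdh10* transcripts was not tested.

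**Figure D4:**
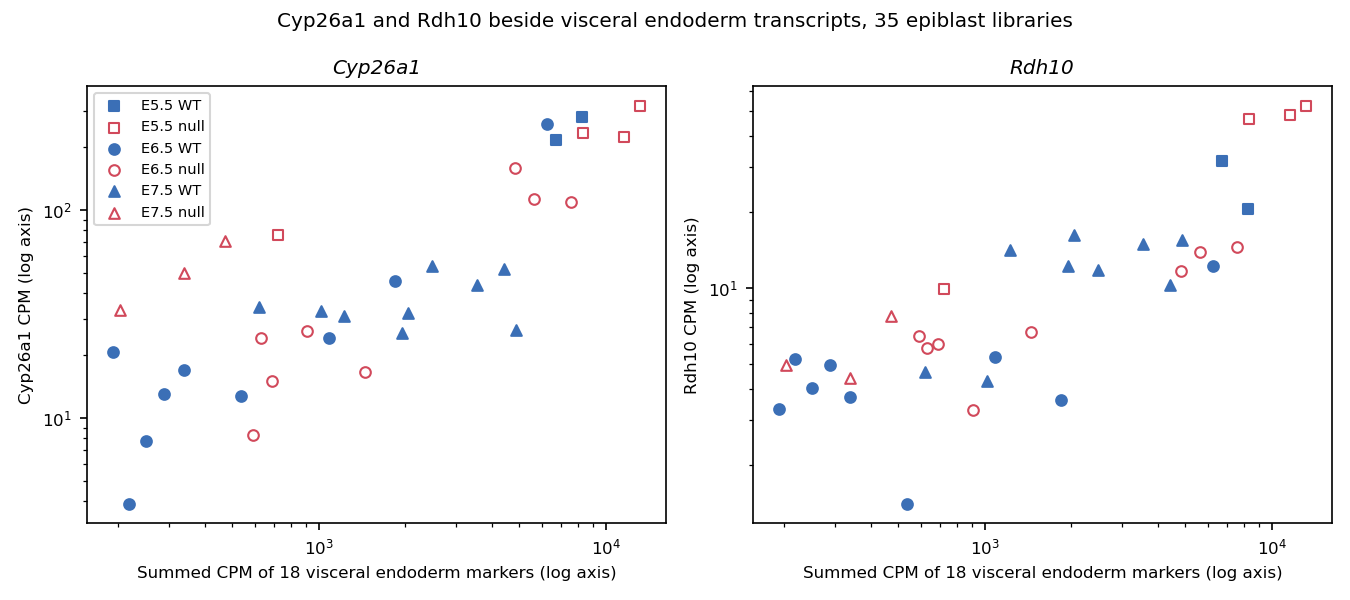
Each point is 1 of the 35 epiblast libraries, with the summed CPM of 18 visceral endoderm markers on the x axis and the CPM of *Cyp26a1* (left) or *Rdh10* (right) on the y axis, all log axes. The E5.5 libraries other than null 1 (719 CPM) sit at the upper right, and the E7.5 null libraries (triangles, open) have sums of 203 to 473 CPM at 33.1 to 71.2 CPM of *Cyp26a1*.

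*Cyp26c1* (chr19:37685581-37693398, plus strand), its neighbour and relative, stayed low. It did not exceed 3.81 CPM at E5.5 or 3.14 CPM at E6.5, and 5 of 8 null and 3 of 9 WT libraries at E6.5 held 0 counts. At E7.5 the WT values ran from 0.848 through a median of 3.07 to 8.88 CPM, and null 1 to 3 held 1.41, 0.754 and 3.87 CPM. The E7.5 ranges overlapped. The rise from E6.5 to E7.5 in WT, 2.26 ± 0.88 (SE) on the log2 scale, was not called (edgeR adjusted p = 0.0666), nor was the difference of -0.87 ± 0.72 between genotypes at E7.5 (adjusted p = 0.595, or 0.413 when E7.5 WT 3 was left out).

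*Crabp1* (chr9:54764748-54773110, plus strand), a binding protein linked to the turnover of retinoic acid, was a few CPM at most until E7.5. Its values were 0.451 and 2.99 CPM in E5.5 WT and 0, 3.84, 1.32 and 0 CPM in E5.5 null 1 to 4. The E6.5 medians were 2.46 CPM in WT (0 to 4.40) and 2.74 CPM in null epiblasts (0 to 8.49). E7.5 WT libraries ran from 5.17 through 30.4 to 55.5 CPM, and null 1 to 3 held 4.12, 4.1999 and 4.87 CPM, so the E7.5 ranges did not overlap, with WT 3 as the lowest WT library. *Crabp1* rose by 3.51 ± 0.58 (SE) on the log2 scale from E6.5 to E7.5 in WT (edgeR adjusted p = 0.000265) and fell by 2.69 ± 0.57 in E7.5 null against WT epiblasts (adjusted p = 0.0391). The exact permutation p at E7.5 was 0.00455, the smallest possible, and without E7.5 WT 3 the fall was 2.83 (adjusted p = 0.000109). The interaction with stage was -3.14 ± 1.23 (adjusted p = 0.215).

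*Crabp2* (chr3:87948666-87953376, plus strand), which hands retinoic acid to the receptors, followed a similar course from a higher start. E5.5 WT held 10.6 and 16.7 CPM and E5.5 null 1 to 4 held 0, 5.75, 13.9 and 12.1 CPM. At E6.5 the lowest, median and highest were 4.15, 12.54 and 19.4 CPM in WT and 0, 8.72 and 11.2 CPM in null epiblasts, with 6 of 9 WT libraries above all null libraries. At E7.5 they were 6.71, 48.6 and 65.6 CPM in WT against 14.2, 7.46 and 5.88 CPM in null 1 to 3, and only WT 3 overlapped with the null libraries. *Crabp2* rose by 1.94 ± 0.32 (SE) from E6.5 to E7.5 in WT (edgeR adjusted p = 0.000243). The E7.5 difference between genotypes of -2.34 ± 0.56 was just short of a call (adjusted p = 0.0532, exact permutation p = 0.0136) and without WT 3 it was -2.49 ± 0.25 (adjusted p = 1.85e-05). At E6.5 the difference was -0.78 ± 0.56 (adjusted p = 0.811, exact permutation p = 0.0447), within the shallower libraries -0.39 ± 0.18 (adjusted p = 0.356), and without E6.5 null 3, which held 0 counts, -0.59 ± 0.28 (adjusted p = 0.687).

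Of the receptors, *Rara* (chr11:98927818-98974942, plus strand) varied least. Its values ran from 19.3 to 58.6 CPM at E5.5, 26.8 to 66.7 CPM at E6.5 and 32.8 to 55.3 CPM at E7.5, and the EpiSC lines held 36.3 to 38.9 CPM. Null and WT overlapped at each embryonic stage. The log2 fold change in null against WT at E7.5 was 0.01 ± 0.14 (SE, edgeR adjusted p = 0.992), from E6.5 to E7.5 in WT -0.12 ± 0.10 (adjusted p = 0.438) and from E5.5 to E6.5 in WT 0.46 ± 0.16 (adjusted p = 0.103). *Rara* lies 1.91 Mb from *Stat3* on chromosome 11, and whether alleles linked to *Stat3* differ between the groups was not tested.

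*Rarb* (chr14:16430839-16819156, minus strand), which carries the DR5 shown above, rose at E7.5 in WT. At E5.5 its values were 1.32 and 0.246 CPM in WT and 0.272, 0.174, 2.71 and 0.673 CPM in null 1 to 4. The E6.5 medians were 0.360 CPM in WT (0 to 3.45, highest in WT 3) and 0.626 CPM in null epiblasts (0 to 2.82). E7.5 WT libraries ran from 1.82 through 6.09 to 21.1 CPM, and null 1 to 3 held 0, 0.565 and 0.456 CPM, below every E7.5 WT library including WT 3. *Rarb* rose by 3.47 ± 0.83 (SE) on the log2 scale from E6.5 to E7.5 in WT (edgeR adjusted p = 0.0042) and fell by 4.51 ± 1.05 in E7.5 null against WT epiblasts (adjusted p = 0.0471, exact permutation p = 0.00455), and fell by 4.65 ± 0.97 without E7.5 WT 3 (adjusted p = 0.00662). The interaction with stage was -5.14 ± 2.0 (adjusted p = 0.208). Its values are uncertain in level, because 38.4% of its exon bases are shared with genes on the opposite strand, mainly *Top2b*, and the strand setting of the counting is not given in the sources used here. *Top2b* held 94.6 to 128 CPM in E7.5 null and 93.3 to 196 CPM in E7.5 WT libraries, and its part in the *Rarb* counts was not tested.

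*Rarg* (chr15:102234938-102257517, minus strand) was the most abundant receptor from E6.5 onward. E5.5 WT held 27.6 and 51.9 CPM and E5.5 null 1 to 4 held 6.51, 17.3, 45.3 and 24.2 CPM. At E6.5 the lowest, median and highest were 70.5, 77.2 and 92.6 CPM in WT and 37.5, 65.0 and 81.8 CPM in null epiblasts, so 5 of the 8 null libraries lay below every WT library. At E7.5 WT ran from 54.5 through 64.4 to 80.0 CPM and null 1 to 3 held 74.8, 69.6 and 54.4 CPM. *Rarg* rose by 1.05 ± 0.20 (SE) on the log2 scale from E5.5 to E6.5 in WT (edgeR adjusted p = 0.006), a fold close to the threshold that DESeq2's size factors moved under it. Without E5.5 WT 1 it was 0.64 ± 0.19 and not called (adjusted p = 0.167). In null epiblasts that stage difference was 1.36 ± 0.40 (adjusted p = 0.0784), or 1.08 ± 0.33 with E5.5 null 1 left out (adjusted p = 0.078).

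Between genotypes at E6.5, *Rarg* differed by -0.41 ± 0.14 (SE) on the log2 scale, not called (edgeR adjusted p = 0.433), with an unadjusted exact permutation p of 0.0100. The 3 null libraries with the lowest values, null 1 to 3, are also the null libraries over 40000000 counts, null 1 is the library high in *Elf5*, and null 2 and 3 are those with the fewest genes detected, whose part in this difference was not tested. Without null 1 the difference was -0.35 ± 0.14 (adjusted p = 0.573). Within the shallower E6.5 libraries the difference was -0.15 ± 0.09 (adjusted p = 0.530) and within the deeper ones -1.001 ± 0.22 (adjusted p = 0.943). At E7.5 it was 0.10 ± 0.13 (adjusted p = 0.778). From E6.5 to E7.5 in WT *Rarg* passed the p threshold but not the fold (-0.37 ± 0.08, adjusted p = 0.00258).

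**Figure D5:**
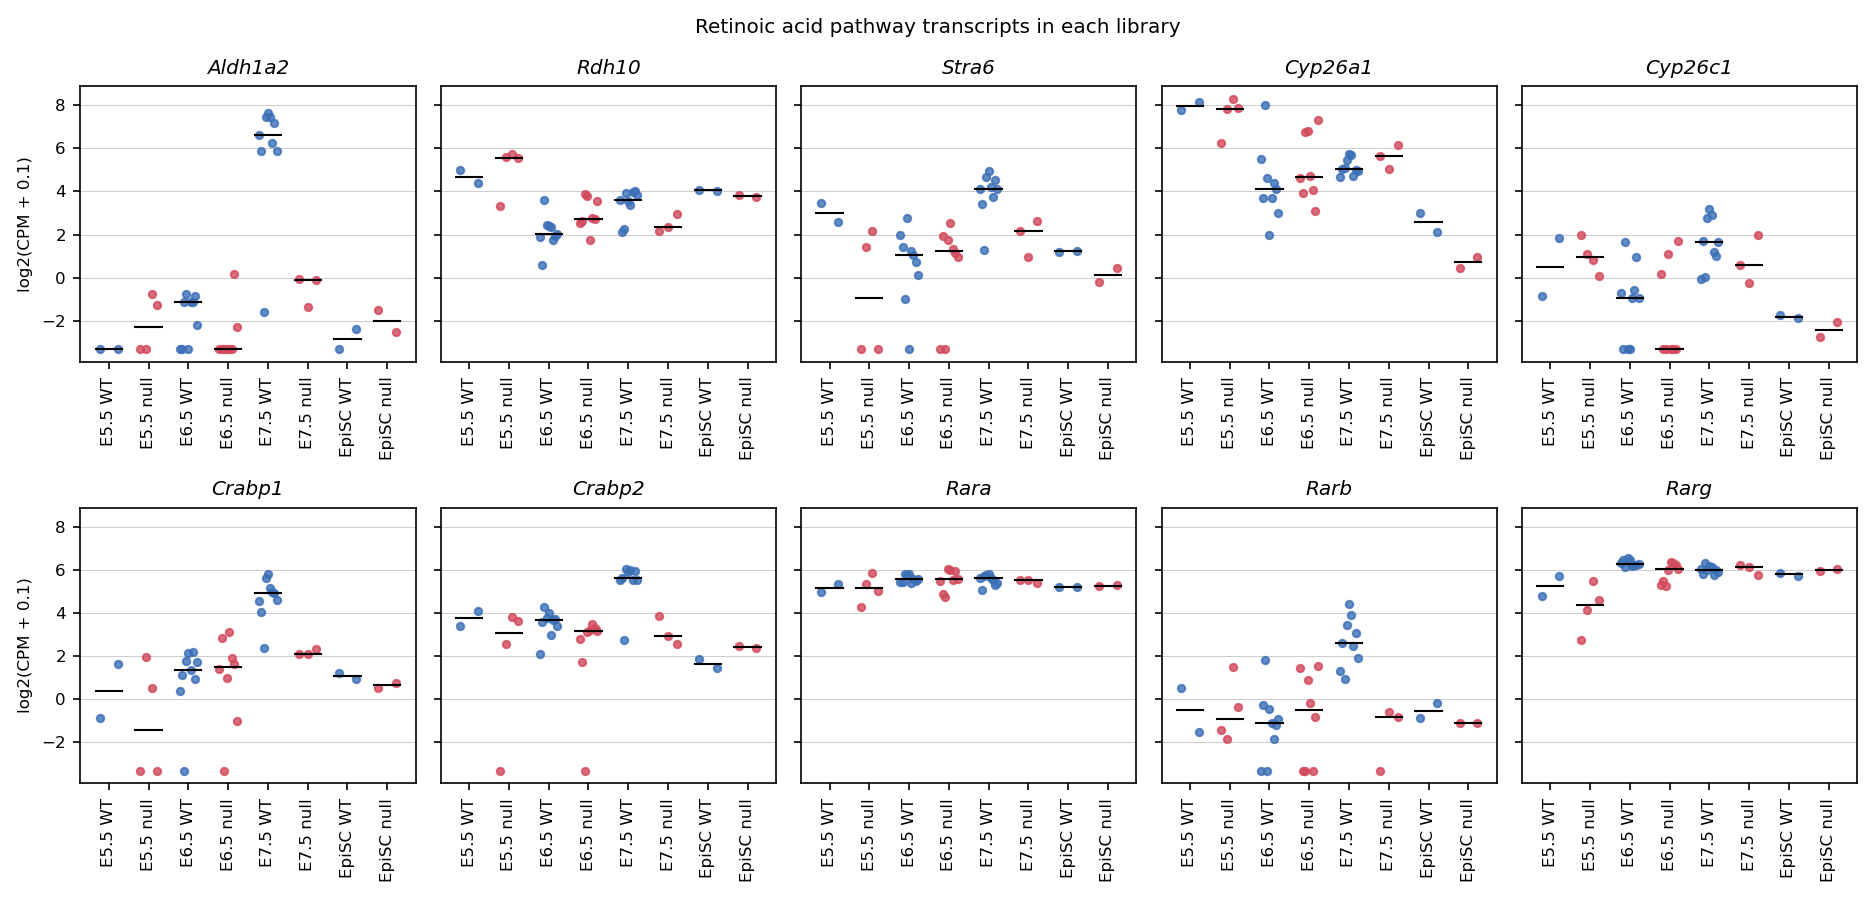
Each panel gives log2(CPM + 0.1) of a gene in every library (points, blue WT and red null) by group, with the group median as a line. E7.5 WT stands above the other groups in *Aldh1a2*, *Crabp1* and *Crabp2* but for a single low library, E7.5 WT 3, and *Rara* lies between 26.8 and 66.7 CPM in every group from E6.5 onward.

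In the other comparisons of epiblasts none of the 10 genes was called. At E5.5, 0 of the 9 genes tested were called between genotypes, where 0% of 18690 genes were called by edgeR and 467 had an unadjusted p under 0.05, and DESeq2 called 31. At E6.5, 0 of 9 were called, where 0% of 17095 genes were called, 1414 had an unadjusted p under 0.05 and DESeq2 called 37. In both, *Aldh1a2* did not pass the filter. Between E6.5 and E7.5 in null epiblasts 0 of 10 were called (0.103% of genes), with a median log2 fold change of 0.24, and in E7.5 null against E6.5 WT 0 of 10 (0.162% of genes), with a median of 0.16. The interaction of genotype with stage gave 0 of 10 (0.443% of genes), while DESeq2 called 1 and voom with quality weights 2. Between genotypes, an unadjusted edgeR p under 0.05 was found for 0 of the 9 genes tested at E5.5 and for 1 of 9 (*Rarg*) at E6.5. At E7.5 it was found for 7 of 10, and for 3874 of the 19680 genes tested.

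Other genes of the pathway were counted from fixed lists. Of 31 further genes of retinoid metabolism and transport, 16 were tested between genotypes at E7.5. Of these, 1 was called, lower in null, where 1.09% of all genes were called lower. Between E6.5 and E7.5 in WT, 2 of 13 tested were called, both higher, where 5.74% of all genes were called higher. Among them was the retinol carrier *Rbp4* (2.74 ± 0.76 (SE), edgeR adjusted p = 0.0136), itself abundant in visceral endoderm. From E5.5 to E6.5 in WT, 2 of 16 were called, both lower, where 5.15% of all genes were called in either direction. They were *Rdh11* (-1.17 ± 0.27) and the carotenoid cleaving enzyme *Bco1* (-4.97 ± 1.37). *Cyp26b1*, the third *Cyp26* gene, had group means of at most 0.433 CPM in each group of libraries.

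Of 15 receptor partners and cofactors, 12 were tested at E7.5 between genotypes and none was called, nor was any of 12 from E6.5 to E7.5 in WT. *Rxra* held 24.4 to 28.8 CPM in E7.5 null and 17.9 to 42.9 CPM in E7.5 WT libraries, and *Rxrb* held 32.6 to 45.6 and 27.6 to 48.8 CPM. Of 25 genes known to respond to retinoic acid, 23 were tested at E7.5 between genotypes. Of these, 3 were called, all lower in null, *Hoxa2* and *Hoxb4* among them, where 1.09% of all genes were called lower. In E7.5 null against E6.5 WT, 13 of the 25 passed the filter. The further genes thus passed at E7.5 mainly through the WT libraries, and their shared direction is no support. *Hoxb4* and *Hoxa2* held 0 counts in all 3 E7.5 null libraries, so the filter fixed their direction, and their WT medians were 3.22 and 5.66 CPM. In the interaction of genotype with stage, 2 of 24 target genes were called lower, where 0.443% of all genes were called in either direction. They were *Tshz1* (-5.65) and *Hoxa2*. Between E6.5 and E7.5 in WT, 7 of 12 tested were called, all higher, where 5.74% of all genes were called higher. Those with the smallest p were *Gbx2* (log2 fold change 7.51), *Meis1* (4.75), *Tshz1* (4.07) and *Meis2* (4.52). Across E5.5 to E6.5 in WT, the partner *Ppard* was called lower (-1.32, of 12 tested), where 5.15% of all genes were called in either direction. The summed CPM of the 25 genes ran from 516 to 946 in the E7.5 WT libraries other than WT 3, where it was 184, and from 180 to 270 in E7.5 null libraries. Many of these genes also mark mesoderm or endoderm, so the sum is no measure of signaling.

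EpiSC lines held little *Aldh1a2* and *Cyp26a1*, while *Rdh10* was above its median in E6.5 and E7.5 epiblasts. All EpiSC libraries were prepared with other kits than the epiblast libraries, so sample type and preparation cannot be told apart. *Aldh1a2* was at 0.252 and 0.0764 CPM in null lines 2 and 6 and at 0 and 0.0941 CPM in WT lines 8 and 13, and did not pass the filter. *Cyp26a1* was at 1.26 and 1.87 CPM in the null lines and at 7.98 and 4.29 CPM in the WT lines. *Rdh10* was at 14.3 and 13.2 CPM and at 16.9 and 16.0 CPM, and *Rarg* at 61.8 and 65.3 CPM and at 58.5 and 51.8 CPM. None of the 9 genes tested was called by edgeR, where 0.106% of 20736 genes were, and DESeq2 called 1. An unadjusted edgeR p under 0.05 was found for 3 of the 9, and for 1885 of the 20736. The log2 fold change in null against WT lines was -1.99 ± 0.39 (SE) for *Cyp26a1* (edgeR adjusted p = 0.186), -1.13 ± 0.34 for *Stra6* (adjusted p = 0.345) and 0.77 ± 0.24 for *Crabp2* (adjusted p = 0.372). The lines did not overlap by genotype in any of the 9 genes tested. With 2 lines a genotype this is a weak criterion. The share of all genes that did the same was not counted, so nothing is read from it. Of 19 target genes tested in EpiSCs 1 was called, *Meis1*, lower in the null lines (log2 fold change -3.68, edgeR adjusted p = 0.0071). DESeq2 called *Cyp26a1*, and so did edgeR when WT line 13 was left out.

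Genes with the most similar pattern were ranked by Pearson's r of log2(CPM + 0.1) over the 35 epiblast libraries, among 10948 genes with a mean of at least 5 CPM. For *Aldh1a2* they were *Hoxb1* (0.946), *Snord15a* (0.927), *Rmrp* (0.922), *Tmem132c* (0.920) and *Fgfr1* (0.912). *Hoxb1* had a mean of 40.01 CPM in E7.5 WT and 0.778 CPM in E7.5 null epiblasts, and was at 0 in E6.5 WT. For *Cyp26a1* they were *Tpcn1* (0.888), *Optn* (0.872), *Rrbp1* (0.869), *AI464131* (0.865) and *Ctsl* (0.862). *Ctsl* had a mean of 765 CPM in E5.5 WT, 137 CPM in E6.5 WT and 175 CPM in E7.5 WT. These correlations describe libraries that share stages, and carry no test.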

How the data were processed

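RNA-seq was read in single mouse epiblasts and in EpiSC lines. Per the study's methods, the authors prepared the epiblast libraries with a low-input stranded total RNA kit and the EpiSC libraries after ribosomal RNA depletion, aligned reads with HISAT2 to GRCm38 and counted them per gene with StringTie. The deposited values are counts per gene, whole numbers without normalization. The annotation version and strand setting are not given in the sources used here. Exon lengths, positions and overlaps were taken from GENCODE vM21 (47224 of 47643 rows matched). Samples were grouped by the labels' genotype and stage. Nothing in the labels ties embryos to litters, so p-values measure the spread between these libraries.

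The main test was the quasi-likelihood test of edgeR 4.0.16 under R 4.3.3 (TMM, filterByExpr with minimum count 10 and total 15, robust quasi-likelihood fit, two-sided, Benjamini-Hochberg adjustment over all genes tested) on the libraries of the compared groups. A standard error is the log2 fold change divided by the square root of F. Single values were compared by exact permutation tests of log2(CPM + 0.1), two-sided and unadjusted. CPM uses total counts, and depth limits only the lowest values, to the 3 counts that 0 allows, which covers counting error alone. Alternatives were DESeq2 1.42.0, its size factors (RLE), no filter, leaving out genes over 1% of a library, voom with quality weights (limma 3.58.1), all 35 libraries in 1 fit, E6.5 depth groups, replicate number as a block, a pseudocount of 1 and each library left out. All members are named. Other genes are *Stat3*, marker genes of libraries that stand apart, called genes of the lists (up to 4 per list, by smallest p) and the 5 most similar to *Aldh1a2* and *Cyp26a1*. *Cyp26b1*, *Rxra*, *Rxrb* and *Top2b* were named after their values were seen. Some called genes of the lists are not reported here. The members and lists were chosen with earlier results of these data known. Python 3.11.15 and matplotlib 3.10.9 made the figures.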

Additional observations from a re-analysis of the deposited data

Results flagged for a closer look

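Within groups of 4 to 10 libraries, the highest or lowest log2(CPM + 0.1) was compared with the rest of its group by Dixon's test in 40 groups of values, and 7 values stood out. The nominal rate of about 1 in 20 holds for independent, normally distributed values. Several of the 7 come from E7.5 WT 3 and others rest on 0 counts, so no excess over chance is read. In E7.5 WT 3, *Aldh1a2* (0.228 CPM, others 57.8 to 202), *Stra6* (2.31 CPM, others 10.5 to 31.0) and *Crabp2* (6.71 CPM, others 45.8 to 65.6) were each low. In E5.5 null 1, *Rdh10* was low at 9.92 CPM, where the others held 46.5 to 52.6. *Crabp1* was at 0 in E6.5 WT 3 (others 1.20 to 4.40), and *Crabp2* was at 0 in E6.5 null 3 (others 3.26 to 11.2). *Aldh1a2* was high in E6.5 null 7 at 1.04 CPM, where the others held 0 to 0.107.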

How the results depend on the processing

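Of the folds given above, 236 runs under other settings with all libraries of the setting in kept direction and side of the threshold. Of the other such runs, 17 passed the threshold, 21 no longer passed it and 8 turned direction. With 1 library left out, 540 runs kept both, 8 passed the threshold, 39 no longer passed it and 7 turned direction. None of the folds called turned. The number of the 10 genes called at E7.5 between null and WT, 3, became 5 under DESeq2 and 4 under voom. It became 2 with RLE and with genes over 1% left out. It was 0 without a filter, with the replicate number as a block and in 1 fit of all 35 libraries, and ran from 0 to 5 with 1 library left out. For E6.5 against E5.5 in WT, 2 became 1 with RLE, with genes over 1% left out and in the 35-library fit, 3 under voom and 0 under the block, and ran from 0 to 3 with 1 library left out. In null epiblasts 1 became 2 under DESeq2 and in the 35-library fit, 4 under voom and 0 under the block, and ran from 0 to 2. The count of 0 became 1 under voom for E7.5 null against E6.5 WT. For the interaction it became 1 under DESeq2 and 2 under voom, and for EpiSC 1 under DESeq2, both running from 0 to 1 with 1 library left out.

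*Cyp26a1* from E6.5 to E7.5 in WT was 0.85 under DESeq2, 1.52 under voom and 0.82 under the block, and ran from -0.57 to 0.94 with 1 library left out, the highest without E6.5 WT 3. Between genotypes at E6.5 it was -1.14 in libraries over 40000000 counts and ran from -0.0735 to 1.68, the lowest without null 8 and the highest without WT 3. At E7.5 *Rara* was -0.01054 under DESeq2, -0.01706 with RLE and -0.02206 in the 35-library fit, and ran from -0.0478 to 0.0435. *Cyp26c1* at E7.5 was 0.37 under the block. The causes were not tested.

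Nothing in the labels ties libraries of the same number, and by their deviations from the group means not every same-numbered pair correlated over 0.1. The correlations ran from 0.0443 to 0.294 in 2 pairs at E5.5, from -0.0722 to 0.316 in 8 at E6.5 and from -0.396 to 0.0972 in 3 at E7.5. Over 0.1 were 4 of the 8 E6.5 pairs and none at E7.5, and 2 of 2, 1 of 8 and 0 of 3 null libraries correlated best with their own number. The numbers were therefore not used to pair libraries, and calls lost under the block are not read as weaker effects. With 3 or fewer libraries in a group, 1 library can set a value, and genes near the 3-count limit are not resolved.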
